A study of Mus musculus with 2 samples.

Results

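DNA methyltransferases, their partner UHRF1 and the TET dioxygenases were described in mouse embryonic stem cells that overexpress lincU, a long noncoding RNA, and in control cells. The genes were chosen by name as Dnmt3a, Dnmt3b, Dnmt3l, Dnmt1, Uhrf1, Tet1, Tet2 and Tet3, and a probe set was used where the array annotation names it to that gene alone. Of these 8 genes, 6 were measured, with 12 probe sets, among 10313 genes with 15273 such probe sets in all. Tet2 and Tet3 had no probe set in the table used here and were not measured. The study had 1 Affymetrix 3' expression array of lincU-overexpressing cells and 1 of control cells, both of the mouse embryonic stem cell line 46C, whose Sox1 locus carries a reporter of green fluorescent protein. Both cultures were kept on feeder cells with 15% serum and 1000 U/ml of leukaemia inhibitory factor, and the feeder layer was taken away before RNA was prepared. The labels give neither the vector of the overexpressing cells nor what the control cells carry. With 1 array per group there was no replicate, so no test, standard error or p-value could be computed, and each difference describes these 2 arrays.

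DNA methylation in mammals is written mostly at CpG dinucleotides. DNMT3A and DNMT3B add methyl groups to unmethylated DNA, and DNMT3L, which has no catalytic activity of its own, binds and stimulates them. DNMT1 copies the pattern onto the new strand after replication, guided there by UHRF1, which recognises the hemimethylated sites. TET enzymes oxidise methylcytosine, a step towards its removal. In mouse embryonic stem cells these genes are known for the contrast between culture states, since cells grown with inhibitors of MEK and GSK3 carry less DNA methylation than cells in serum.

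The promoter windows of the genes with the larger differences are shown because the measured transcripts are those of the enzymes that act on CpG sites, and the windows differ in how many such sites they hold. Each runs from 250 bases before to 50 bases after a transcription start in RefSeq (assembly GRCm38.p6), written 5′ to 3′ on the gene's strand, with every CpG in capitals. The sequences are the only Dnmt3b window at chr2:153649199-153649498 (+ strand), the first and the third of 3 Dnmt3a windows, counted from the 5′ end of the gene, at chr12:3806730-3807029 and chr12:3891494-3891793 (+ strand), the first of 3 Dnmt3l windows at chr10:78042037-78042336 (+ strand) and, for the gene that was higher, the second of 2 Uhrf1 windows at chr17:56304063-56304362 (+ strand).
Dnmt3b: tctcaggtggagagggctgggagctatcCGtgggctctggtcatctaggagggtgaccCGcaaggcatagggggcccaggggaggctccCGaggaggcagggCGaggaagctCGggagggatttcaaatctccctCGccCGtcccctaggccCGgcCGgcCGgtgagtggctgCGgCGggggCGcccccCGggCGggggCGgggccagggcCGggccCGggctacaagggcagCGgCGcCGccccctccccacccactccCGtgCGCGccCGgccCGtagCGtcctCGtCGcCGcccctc
Dnmt3a, the first start: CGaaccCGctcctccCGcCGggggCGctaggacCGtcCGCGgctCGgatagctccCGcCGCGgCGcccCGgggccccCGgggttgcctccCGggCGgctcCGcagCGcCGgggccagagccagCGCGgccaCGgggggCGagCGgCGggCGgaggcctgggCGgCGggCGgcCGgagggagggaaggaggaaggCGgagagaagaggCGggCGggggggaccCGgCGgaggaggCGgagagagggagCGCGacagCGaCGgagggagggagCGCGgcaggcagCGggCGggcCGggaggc
Dnmt3a, the third start: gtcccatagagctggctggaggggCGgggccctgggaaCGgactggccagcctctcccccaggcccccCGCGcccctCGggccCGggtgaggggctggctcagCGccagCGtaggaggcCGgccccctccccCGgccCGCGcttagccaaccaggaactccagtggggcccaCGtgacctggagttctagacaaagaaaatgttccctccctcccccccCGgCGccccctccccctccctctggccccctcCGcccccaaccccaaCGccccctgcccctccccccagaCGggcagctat
Dnmt3l, the first start: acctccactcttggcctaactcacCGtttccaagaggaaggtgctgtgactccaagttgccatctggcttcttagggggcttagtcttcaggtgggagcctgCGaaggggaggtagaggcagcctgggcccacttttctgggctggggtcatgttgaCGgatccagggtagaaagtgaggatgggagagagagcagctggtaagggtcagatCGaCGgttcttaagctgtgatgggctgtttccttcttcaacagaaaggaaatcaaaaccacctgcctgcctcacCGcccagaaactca
Uhrf1, the second start: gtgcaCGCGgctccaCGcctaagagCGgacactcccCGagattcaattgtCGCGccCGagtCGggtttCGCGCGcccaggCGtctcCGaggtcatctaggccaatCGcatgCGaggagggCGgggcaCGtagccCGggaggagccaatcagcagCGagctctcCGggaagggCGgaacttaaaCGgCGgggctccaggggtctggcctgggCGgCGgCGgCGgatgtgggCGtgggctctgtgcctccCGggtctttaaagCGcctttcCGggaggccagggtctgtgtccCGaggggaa

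All 8 genes had at least 1 window in RefSeq's table, and the median of all 32851 windows of this length was 7 CpG. The Dnmt3b window held 30 CpG, a number reached by 11.7% of the windows. The first Dnmt3a window held 46, reached by 1.65%, and the third held 18, reached by 29.7%. The Dnmt3l windows held 6, 4 and 3 CpG, numbers reached by 56.4%, 68.6% and 76.7% of the windows. The de novo genes thus differed among themselves in CpG content, with Dnmt3l under the median of all windows and Dnmt3a and Dnmt3b above it. The Uhrf1 windows held 12 and 33 CpG, the Dnmt1 windows 2, 12 and 33, and the Tet1 window 17. Both strands were searched for the GC box GGGCGG, the E-box CACGTG and the AP-1 motif TGANTCA, none of which contains another, and each match was counted. GGGCGG was found 4 times in the Dnmt3b window and 6, 7 and 2 times in the Dnmt3a windows. The first 2 Dnmt3a windows overlap, so matches in the shared stretch were counted in both. It was found 1, 2 and 0 times in the Dnmt3l windows and 1 and 3 times in the Uhrf1 windows. Each of the 8 genes had a window with GGGCGG. Counted by window and not by gene, 35.7% of all windows held at least 1 match, so the 2 figures are not directly comparable. GC content was 51.3% to 82.3% in the windows of the 8 genes, against a median of 52.7% in all windows, and was not matched. The third Dnmt3a window and the second Dnmt3l window each held 1 CACGTG, which was in 7.15% of all windows. No window of the 8 genes held TGANTCA, against 7.81% of all windows. A match describes letters in the window and was not taken as a binding site.

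In the lincU-overexpressing cells, the leading probe sets of the 3 genes of de novo methylation were lower, at log2 differences of -0.83, -0.56 and -0.30. Each was larger in size than the SD of 0.23 between probe sets, Dnmt3l at -0.30 by little. Dnmt1, Uhrf1 and Tet1 lay within that SD on their leading probe sets. Uhrf1, at 0.22, was close to it and above the SD of 0.19 in the brightest of 3 equal groups of genes. The second Tet1 probe set, at 0.30, was beyond 0.23. These SDs hold no variation between cultures. The differences of all bright genes had an SD of 0.40, and Dnmt3l was within it. A gene was read from its probe set with the highest mean signal. It was called bright if its higher array was at or above the median of that array over probe sets of 1 gene. These medians were log2 signals of 7.90 for overexpression and 7.96 for control. All 12 probe sets of the 6 measured genes were bright, and none was near the floor at which low values were set equal, 5.65 on the overexpression array and 5.73 on the control array. A gene was called if its log2 difference was at least 0.58 in size, which is 1.5-fold. By this rule 1 of the 6 genes, Dnmt3b, was called lower and none higher. Of all 5609 bright genes, 6.69% were called lower and 4.65% higher. With the array medians subtracted, 302 bright genes were lower and 320 higher past this threshold, in place of 375 and 261 as deposited. Among the 1256 bright genes with a mean log2 signal between 11.0 and 12.7, the range of the 6 genes, 3.03% were called lower.

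**Figure D1:**
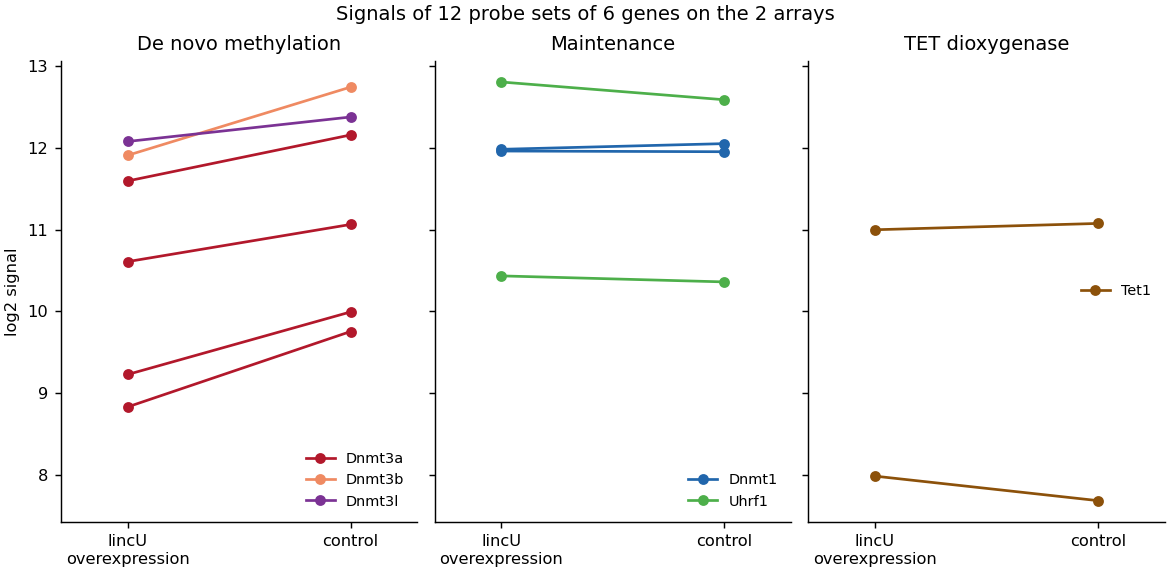
Log2 signal (vertical axis) of each of the 12 probe sets on the lincU overexpression array and on the control array, with a line joining the 2 values of a probe set and a colour for each gene. The 6 lines of Dnmt3a, Dnmt3b and Dnmt3l all lie lower on the overexpression array, with differences of -0.92 to -0.30, while both Dnmt1 lines are nearly level.

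Dnmt3b encodes the enzyme that sets methylation at many CpG islands and repeats of the early embryo. It had a log2 signal of 11.91 in overexpressing cells and 12.74 in control cells. The overexpression array was thus lower by a log2 difference of -0.83, at 56.1% of the control signal. Of the 5609 bright genes, 149, or 2.66%, had a difference as low or lower. Dnmt3b was not 2-fold lower, a size reached by 1.3% of bright genes. It had a single probe set, of a type that can bind several transcripts of a gene, so its splice forms could not be told apart and no second probe set stood beside it.

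Dnmt3a encodes the other active de novo enzyme, made as a long and a short form from separate starts. Its leading probe set had a log2 signal of 11.59 in overexpressing cells and 12.16 in control cells, a difference of -0.56, just short of the 1.5-fold threshold. A second probe set had 10.61 in overexpressing and 11.06 in control cells, a difference of -0.45. All 4 probe sets of Dnmt3a are annotated to the same transcript record, and their positions in it were not used here, so the long and the short form were not told apart. The third had 9.23 in overexpressing and 9.99 in control cells, a difference of -0.76. The fourth had 8.83 in overexpressing and 9.75 in control cells, a difference of -0.92, and it was at 52.8% of control. All 4 were therefore lower, with a mean difference of -0.68. By single probe set, 3 of the 12 probe sets of the measured genes were called lower, those of Dnmt3b and the last 2 of Dnmt3a, where 6.58% of all 7983 bright probe sets were. Since 2 of these 3 belong to the same gene and share its RNA and arrays, they do not count as separate genes. By gene, only Dnmt3b was called lower.

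The probe sets of a gene gave the only repeated reading in these data. They share the RNA and the array, so their spread holds no variation between cultures. In the 1732 genes read by several bright probe sets, the SD of the difference within a gene was 0.23. It was 0.19 in the brightest and 0.29 in the dimmest of 3 equal groups of these genes. The differences of all bright genes had an SD of 0.40. The difference of Dnmt3b was 3.58 times the SD of 0.23, and those of the 4 Dnmt3a probe sets were 1.95 to 3.96 times that SD. The largest of these Dnmt3a ratios were those of its 2 dimmest probe sets. Of the 90 genes with exactly 4 bright probe sets, 33.3% had all 4 of the same sign and 15.6% had all 4 lower. In 3.33% of the 90, Dnmt3a included, no probe set was above -0.45, the highest of the Dnmt3a values. The 4 Dnmt3a values spanned 0.47, against a median span of 0.37 for the 90 genes, and 35.6% of them, Dnmt3a included, spanned as much.

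Dnmt3l encodes the inactive cofactor of the de novo enzymes. It had a log2 signal of 12.08 in overexpressing cells and 12.38 in control cells, a difference of -0.30, and stood at 81.3% of control. This is 1.28 times the SD between probe sets, and 18.7% of bright genes had a difference as low or lower. Its only probe set is of a type that can bind transcripts of more than 1 gene. The 3 de novo genes together had a median log2 difference of -0.56, against 0.00 for all bright genes.

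Dnmt1 encodes the maintenance methyltransferase. Its leading probe set had a log2 signal of 11.98 in overexpressing cells and 12.05 in control cells, a difference of -0.07. The other had 11.96 in overexpressing and 11.95 in control cells, a difference of 0.01. The 2 probe sets went opposite ways by less than the SD of 0.23, so no direction was read for Dnmt1. Both are of types that can bind several transcripts.

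Uhrf1 encodes the protein that brings DNMT1 to newly replicated DNA. Its leading probe set had a log2 signal of 12.80 in overexpressing cells and 12.59 in control cells, a difference of 0.22, and 20.2% of bright genes were as high or higher. The second probe set had 10.43 in overexpressing and 10.36 in control cells, a difference of 0.07. Both were higher on the overexpression array, and both differences were under the SD of 0.23. The larger was above the SD of 0.19 found in the brightest group of genes. Of the 1265 genes with exactly 2 bright probe sets, 68.5% had both of the same sign.

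Tet1 encodes the TET enzyme best known from embryonic stem cells. Its leading probe set had a log2 signal of 11.00 in overexpressing cells and 11.07 in control cells, a difference of -0.08. The second had 7.99 in overexpressing and 7.69 in control cells, a difference of 0.30, and it was bright on the overexpression array alone. The probe sets disagreed in sign, and their mean difference was 0.11. Of the 4 measured genes with 2 or more probe sets, Dnmt3a and Uhrf1 had probe sets of the same sign and Dnmt1 and Tet1 did not, where 62% of all genes with several bright probe sets had the same sign throughout.

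**Figure D2:**
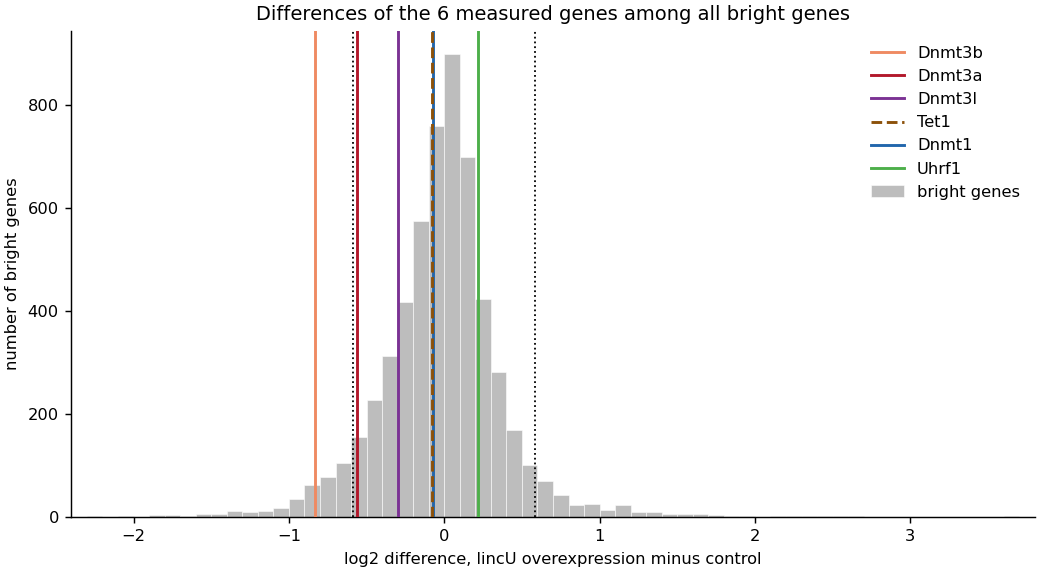
Number of bright genes (vertical axis) by log2 difference, lincU overexpression minus control, in bins of 0.1, with a coloured line at each of the 6 measured genes and dotted lines at 1.5-fold. Dnmt3b at -0.83 lies outside the lower dotted line, Dnmt3a at -0.56 just inside it, and Dnmt1 and Tet1 near 0.

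Of the 6 measured genes, 5 had a lower signal on the overexpression array, Dnmt1 and Tet1 among them on the leading probe set alone, a direction seen for 49.8% of all bright genes, and their median difference was -0.19. By role, the 3 de novo genes had differences of -0.83, -0.56 and -0.30, the maintenance pair -0.07 and 0.22, and the single TET gene -0.08. Within the measured set, the de novo genes therefore held the 3 lowest values. Whether the roles differ could not be tested with 1 array per group.

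None of the 6 genes lies on chromosome 14 or on distal chromosome 6, where stretches of neighbouring genes differed together. On chromosome 14, 70 bright genes between Abhd6 and Ghitm had a median log2 difference of 1.08. A further 137 bright genes of that chromosome between Tspan14 and Tmtc4 had a median of -0.59, and the 97 from Rad18 to Resf1 on chromosome 6 a median of 0.37. The ends of these stretches were set with these data known. Around each measured gene, up to 5 bright genes on either side were listed in the order of GRCm38.p6. The 10 neighbours of Dnmt3b on chromosome 2 had a median of 0.04, with 4 lower and 6 higher. Commd7, the next bright gene on 1 side, had a difference of -0.62 and Plagl2, a zinc finger gene 2 bright genes further, also -0.62, whereas Mapre1, a gene of a microtubule-binding protein on the other side, had 0.05. The 7 neighbours of Dnmt3a, which lies near the start of chromosome 12, had a median of -0.22, ranging between Adcy3, an adenylyl cyclase gene, at -0.93 and Itsn2, an endocytic scaffold gene, at 0.46. The 10 neighbours of Dnmt3l on chromosome 10 had a median of -0.17, with 7 of them lower. Aire, the autoimmune regulator gene beside Dnmt3l, went the other way, at 1.76. It was bright on the overexpression array alone, at 8.60 there and 6.84 in control cells. The 10 neighbours of Dnmt1 on chromosome 9 had a median of -0.25, with 8 of them lower, and Dnmt1 itself at -0.07 was above that median. The neighbours of Uhrf1 on chromosome 17 and of Tet1 on chromosome 10 had medians of 0.03 and 0.01.

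**Figure D3:**
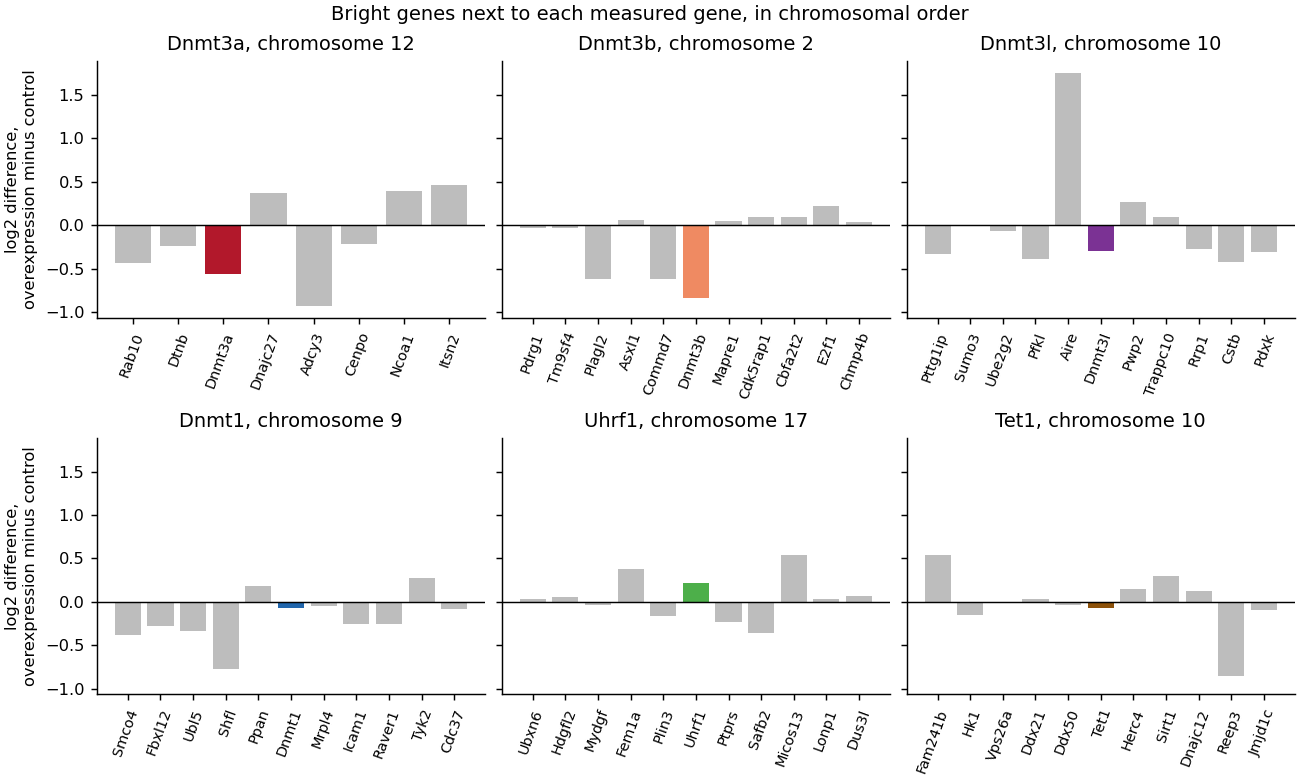
Log2 difference, lincU overexpression minus control (vertical axis), of each measured gene (coloured bar) and of up to 5 bright genes on either side in chromosomal order (grey bars). Dnmt3b at -0.83 stands among neighbours with a median of 0.04, and Dnmt3a at -0.56 among neighbours of both signs.

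The genes whose pair of signals on the 2 arrays was closest were named by Euclidean distance over the 2 log2 signals, which with 2 arrays is a weak measure of likeness. For Dnmt3b they were Ifitm3, an interferon-inducible membrane protein gene, at a distance of 0.12 and a difference of -0.73, Dis3, a gene of the RNA exosome, at 0.13 and -0.74, and Fos, an AP-1 subunit gene, at 0.19 and -1.06. For Dnmt3a they were Dad1, a gene of the oligosaccharyltransferase, at 0.06 and -0.48, Dusp6, an ERK phosphatase gene, at 0.09 and -0.43, and Trp53bp1, a DNA damage response gene, at 0.09 and -0.48. Dis3 and Dad1 lie on chromosome 14.

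Of 15 listed partners of the methyltransferases 11 were measured and 9 were bright, and none of these passed 1.5-fold in either direction. Of all bright genes 4.65% were called higher and 6.69% lower, so a count of 0 among 9 is near that background. Their values lay between -0.43 for Pclaf, the PCNA-associated factor that is also tied to UHRF1 at replication forks, and 0.26 for Hells, a chromatin remodeller needed for normal methylation. Pclaf had 12.25 in overexpressing and 12.68 in control cells, and its second, dim probe set was at -1.34. Cdca7, the partner of HELLS, had 10.78 in overexpressing and 11.06 in control cells, a difference of -0.28. Usp7, the deubiquitinase that binds DNMT1 and UHRF1, was at 0.00. The median of the 11 measured partners was 0.00, and that of all genes was 0. Probe sets under the floor on both arrays were set to 0, and with no floor the median of all genes was -0.03. The dim partner Ehmt2, a histone methyltransferase gene, had 6.50 in overexpressing and 7.72 in control cells, a difference of -1.22. Hells, Usp7 and Ehmt2 were picked after their values were seen.

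On the side of demethylation, 5 of 10 listed TET partners and cofactor genes were measured and 3 were bright. None of these 3 passed 1.5-fold, where 4.65% of all bright genes were called higher and 6.69% lower. Ogt, the X-linked O-GlcNAc transferase gene whose product binds TET proteins, had 9.76 in overexpressing and 10.17 in control cells, a difference of -0.42, and its other bright probe set differed by -0.13. Idh1, which makes the 2-oxoglutarate that TET enzymes use, had 11.91 in overexpressing and 11.51 in control cells, a difference of 0.40, with 0.21 on a second probe set. Ogt and Idh1 thus stood on opposite sides of control.

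Of 12 base excision repair genes, 7 were measured and 6 bright, with 1 called lower and none higher, where 6.69% and 4.65% of all bright genes were. The gene called was Apex1, which encodes the endonuclease that cuts the DNA backbone where a base has been removed. Apex1 had 12.41 in overexpressing and 13.14 in control cells, a difference of -0.72, and its second probe set was at -0.86. Apex1 lies in the stretch of chromosome 14 from Tspan14 to Tmtc4, and with the median of that stretch subtracted its difference was -0.13. Tdg, the glycosylase that removes oxidised methylcytosine, was not measured.

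Of 7 methylcytosine readers and related genes, 4 were measured. The 3 bright ones, Mbd1, Mbd2 and Mbd3, were lower by less than 1.5-fold on their leading probe sets, a direction seen for 49.8% of all bright genes. A second bright probe set of Mbd2 was at -0.87. The dim Zbtb33 was at 0.27, with its control value raised to the floor. Mbd3, a subunit of the NuRD complex, had 10.64 in overexpressing and 10.86 in control cells, a difference of -0.21. Mbd1 had 8.06 in overexpressing and 8.26 in control cells, a difference of -0.20. The methionine and folate cycle, which supplies the methyl groups, had 8 of 13 listed genes measured, all bright, none past 1.5-fold and a median of 0.03. Of all bright genes, 4.65% were called higher and 6.69% lower. Gldc, the glycine decarboxylase gene, had 10.56 in overexpressing and 10.94 in control cells, a difference of -0.39. Mat2b, a regulatory subunit of the enzyme that makes S-adenosylmethionine, had 11.38 in overexpressing and 11.16 in control cells, a difference of 0.21.

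Among 8 genes known to bear on methylation in stem cells, 7 were measured and 6 bright, with 1 called higher and none lower, where 4.65% and 6.69% of all bright genes were. Esrrb, a nuclear receptor gene of naive pluripotency, had 12.15 in overexpressing and 11.51 in control cells, a difference of 0.65, and 0.17 on its second probe set. Dppa3, whose product inhibits UHRF1, had 9.16 in overexpressing and 9.54 in control cells, a difference of -0.38. It was picked after its value was seen and lies in the chromosome 6 stretch, whose ends were set with these data known. With the median of that stretch subtracted it stood at -0.76, and without this step it was not past 1.5-fold. Lin28a, an RNA-binding protein gene and the lowest bright gene of the list, had 12.53 in overexpressing and 13.06 in control cells, a difference of -0.53, and its second bright probe set was at -1.45. It too was picked after its value was seen. Prdm14, a repressor of Dnmt3b in mouse stem cells, was not measured.

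Germline genes known to be silenced by promoter methylation were listed beside the enzymes. Whether their signals follow DNA methylation in these cells was not tested. Of 12 listed genes 7 were measured and 3 were bright, and 2 of these 3 were called higher and none lower, where 4.65% and 6.69% of all bright genes were. Dazl, whose product binds RNA in germ cells, had 9.11 in overexpressing and 7.98 in control cells, a difference of 1.13. Tex19.1, a gene of germ and stem cells, had 11.38 in overexpressing and 10.58 in control cells, a difference of 0.79. Dazl and Tex19.1 each had a single probe set. Ddx4, the Vasa helicase gene of the germline, was the third bright gene, at 9.55 in overexpressing and 9.61 in control cells. It differed by -0.06, so the 3 bright genes did not share a direction. The 7 measured genes, dim ones included, had a median of 0.46, which is the value of the dim gene Sycp1. That median was 0.26 with the floor set at the 40th percentile, against 0.00 for all genes. With no floor it was 0.46, against -0.03 for all genes. DNA methylation itself was not measured in these samples.

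**Figure D4:**
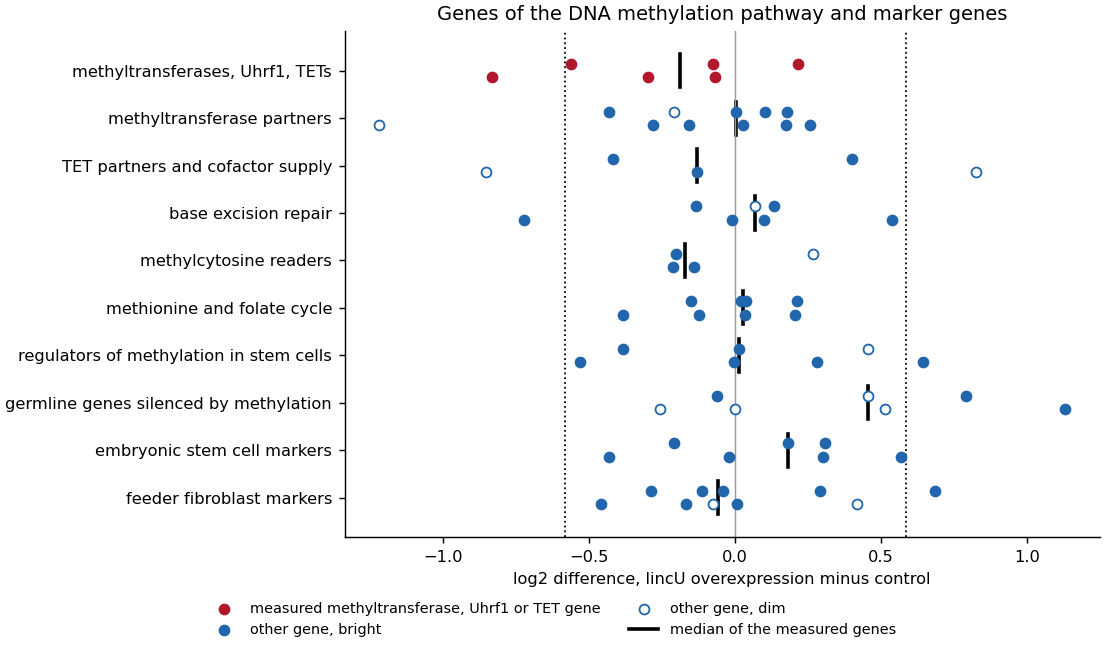
Log2 difference, lincU overexpression minus control (horizontal axis), of each measured gene of 10 lists (rows), with bright genes filled, dim genes open, the median of each list as a black bar and dotted lines at 1.5-fold. Dnmt3b and Apex1 are the only bright genes below the lower dotted line, and Esrrb, Dazl, Tex19.1 and the feeder gene Pdgfrb the only bright ones above the upper line.

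Markers of both cell types of the culture were read beside these genes. Of 8 stem cell markers 7 were measured, all bright, none past 1.5-fold, with a median of 0.18, or 0.08 without the genes of chromosome 14 and of the chromosome 6 stretch. Their summed signal was 16.38 on the log2 scale in overexpressing cells and 16.28 in control cells. Nanog stood highest at 0.57, or 0.19 with the median of its chromosome 6 stretch subtracted, and Utf1 lowest at -0.43. Of 12 feeder fibroblast markers 10 were measured and 8 were bright, with a median of -0.06 over the 10 and a log2 summed signal of 12.72 in overexpressing and 12.80 in control cells. Pdgfrb, a receptor gene of mesenchymal cells, was the only one past 1.5-fold, at 0.69 on a single bright probe set, and its other, dim probe set was at -0.98. Of all bright genes, 4.65% were called higher and 6.69% lower, beside 1 of the 8 bright feeder markers and none of the 7 stem cell markers. No marker of either list was at 0 on either array. In bulk RNA, fewer cells that express a gene and less of its RNA per cell cannot be told apart.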

How the data were processed

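Total RNA of 2 cultures was labelled with biotin and hybridised to Affymetrix 3' arrays, per the labels' protocols. Each deposited value is the log2 signal of 1 probe set on 1 array. The scale was read from their range, up to 15.26 on the overexpression array and 15.13 on the control array. The submitters' processing notes name MAS5 and affy, with neither version nor role, and the scaling target was not given in the sources used here.

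Probe sets were named with the platform's annotation and updated through gene IDs with RefSeq (GRCm38.p6). Of 16994 probe sets, 64 were controls, 15273 had 1 gene (15252 of them matched to RefSeq), 501 several and 1156 none, and only those with 1 gene were used. Values under the 25th percentile of their array, taken over the probe sets used, were raised to it. A probe set at or under it on both arrays was given a difference of 0. Differences are overexpression minus control of log2 signals, as deposited. The number of arrays limits the precision. Computation used Python 3.11.15, pandas 2.3.3, numpy 2.4.6 and statsmodels 0.14.6, and the steps were checked on data with known differences.

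The genes, the 9 other lists and the rules were chosen with earlier results of these data known. From each list the text names the bright genes past 1.5-fold, or else the 2 with the largest differences, and others as stated. The alternatives were other scalings, floors, probe set summaries and thresholds.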

Additional observations from a re-analysis of the deposited data

How the results depend on the processing

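No paired analysis was possible because each group had 1 array. The differences of the 6 measured genes moved by under 0.23, the SD within genes, under every alternative that gave them a value. Dnmt3b ranged between -0.87 and -0.78, Dnmt3a between -0.68 and -0.51, Dnmt3l between -0.33 and -0.24, Dnmt1 between -0.11 and -0.01 and Uhrf1 between 0.15 and 0.27, while Tet1 ranged between -0.08 and 0.11 and changed sign when its probe sets were averaged. The count of genes called lower was 2 in place of 1 with quantile normalization, with the mean or the median over probe sets and at the lower alternative threshold, 0.32 on the log2 scale, where Dnmt3a was also past the threshold. It was 0 at 2-fold and without probe sets of shared type, where Dnmt3b, Dnmt3l and Dnmt1 had no value. Over all bright genes, 73 were lower and 86 higher at 2-fold, 956 lower and 715 higher at the threshold of 0.32, 870 lower and 526 higher with no brightness rule and 100 lower and 99 higher with brightness set at the 75th percentile. With no brightness rule, 41.2% of genes with several probe sets had 1 sign throughout. Leaving out chromosome 14 and the chromosome 6 stretch, an alternative chosen after seeing the data, left 303 bright genes lower and 177 higher and the same count of 1 among the measured genes. Medians of the methyltransferase partners, the methylation regulators and the methionine and folate cycle changed sign under some settings and stayed between -0.18 and 0.15.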
